A study of Mus musculus with 5 samples.

Results

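The heartbeat starts in the sinoatrial node, waits at the atrioventricular node and then runs quickly through the His bundle, the bundle branches and the Purkinje fibres to the ventricular muscle. Node cells fire on their own because of hyperpolarization-activated and T-type calcium currents, and they keep the programme of working muscle off through T-box repressors. Fast-conducting cells instead carry high-conductance connexins and sodium channels, under the control of factors that include Iroquois and ETS proteins. The 7 genes described here were chosen by these roles, with earlier results of the same pools known: the transcription factors Irx3, Etv1 and Tbx3, the pacemaker channels Hcn4 and Cacna1g, the connexin gene Gja5 and the cell adhesion gene Cntn2, a surface marker of Purkinje cells. All 7 were found among the 49671 genes of the deposited counts, and all 7 were among the 14880 genes that had enough counts to be tested.

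RNA came from hearts of C57BL6/J mice at postnatal day 2, of 2 genotypes. Charme WT mice carried the intact locus of Charme, a long noncoding RNA of heart and skeletal muscle, and Charme KO mice carried a polyadenylation signal inserted into that locus, with no further treatment in either group. Hearts of littermates were pooled by genotype, giving 3 Charme WT pools with 9 hearts each and 2 for Charme KO with 3 hearts each. Genotype and hearts per pool cannot be told apart, and p-values measure the spread between these pools. The comparison asks which neonatal heart genes differ when Charme is disrupted.

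Counts of Charme itself were 810, 183 and 276 in the Charme WT pools, in order, against 57 and 79 for Charme KO, which gives a log2 fold change of -2.49 ± 0.55 (SE) and an adjusted p of 0.0763 in edgeR's quasi-likelihood test. This call was lost without Charme WT pool 1 (log2 fold change -1.68, adjusted p = 0.153) and without Charme WT pool 3 (-2.72, adjusted p = 0.275), fits of edgeR's quasi-likelihood test in which 2 and 0 genes were called in all (2190 and 1315 at an unadjusted p under 0.05). Between 16721055 and 21646378 fragments were counted per pool. Genes of the mitochondrial genome took 21.1% of the counts in Charme KO pool 1 and from 9.68% to 11.1% in the other 4 pools. The 7 salivary gland markers, of a tissue that is no part of the heart, took 2.62% of the counts of Charme KO pool 2 against 0.0292% of those of pool 1. Adipose markers took 0.102% of the counts in Charme KO pool 2. With the mitochondrial genes and the listed salivary gland, adipose and skeletal muscle markers out of the fit, 14844 genes were tested. The log2 fold changes of Irx3 and Cacna1g were then -0.99 and -0.73, beside -0.99 and -0.72 with them. Only the listed genes were dropped, so any other RNA of these tissues stayed in the counts. What such RNA adds to these values was not tested. In pooled whole tissue, fewer of the cells that make a gene and less of its RNA in each such cell cannot be told apart. Some of the 7 genes are also made by cells outside the conduction system, as given below.

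Of the 7 genes, Irx3 was lower in Charme KO hearts, at 50.1% of its Charme WT level, and no other passed the threshold. Cacna1g, at 60.5% of the Charme WT level, just missed it. Hcn4 and Tbx3 lay at 77.3% and 81.9%, Cntn2 at 80.5% and Gja5 at 92.7%, while Etv1 lay at 125%, and for these 5 genes the 95% interval of the log2 fold change included 0. A gene was called when its adjusted p was under 0.1 in edgeR's quasi-likelihood test and its mean FPKM was at least 1 in at least 1 genotype. FPKM is the number of fragments per kilobase of exon, scaled to the depth of the pool, and on this scale genes of different length can be set beside each other. So 1 of 7 genes was called lower, where 0.524% of all genes tested were called lower and 2.05% were called in either direction. At an unadjusted p under 0.05 there were 2 of 7, Irx3 and Cacna1g, against 18.6% of all genes. Irx3, Cacna1g and Hcn4, 3 of 7, had both Charme KO pools below every Charme WT pool, as did 18.2% of all genes. None of the 7 had both Charme KO pools above, as 17.8% of all genes did. The log2 fold change was negative for 6 of 7, with a median of -0.28 over the 7 genes and 0.02 over all genes tested. With each pool corrected for length and GC content it was negative for 5 of 7, with medians of -0.07 and -0.03. Without Charme KO pool 1 it was negative for 4 of 7 (medians -0.01 and -0.01). Without Charme KO pool 2 it was negative for 6 of 7 (medians -0.63 and -0.02).

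**Figure D1:**
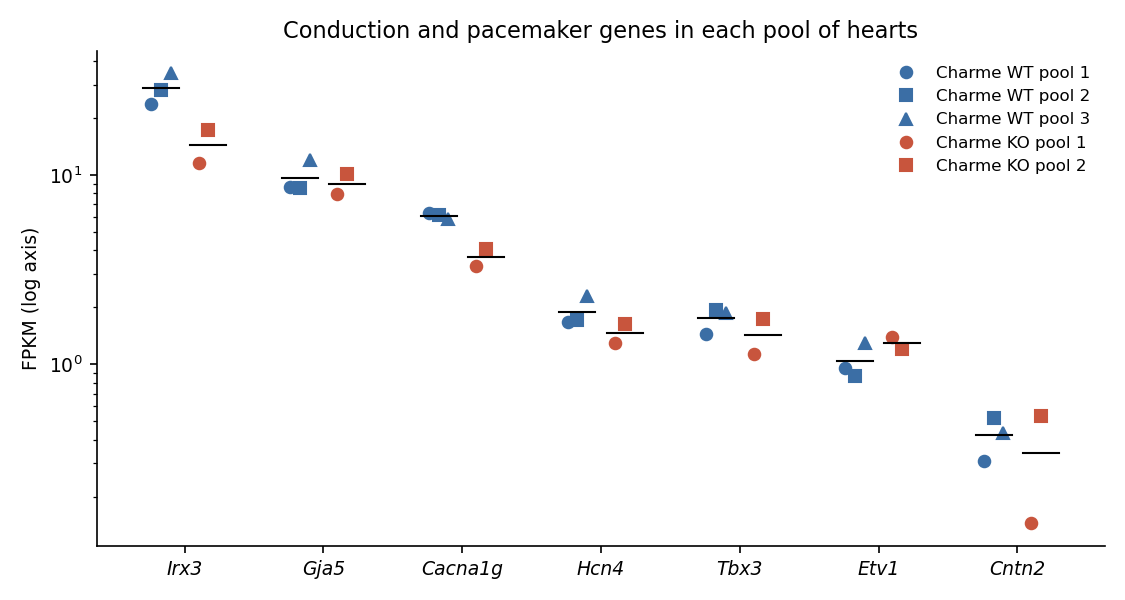
FPKM on a log axis for the 7 genes, ordered by their mean over the 5 pools. Each symbol is 1 pool and each black bar is the mean of a genotype. Irx3, Cacna1g and Hcn4 have both Charme KO pools under all Charme WT pools, and the other 4 genes overlap.

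Irx3 encodes a homeodomain factor that is needed for fast conduction in the His-Purkinje system. The gene lies at chr8:91798525-91802067 on the minus strand of GRCm38, with 2762 exon bases in 4 blocks. It was the most abundant of the 7 genes in every pool. Its levels were 23.7, 28.0 and 34.5 FPKM in Charme WT pools 1 to 3, a mean of 28.7 ± 5.46 (SD, n = 3). In Charme KO pools 1 and 2 they were 11.6 and 17.2 FPKM, a mean of 14.4 ± 3.98 (SD, n = 2). The groups did not overlap. The log2 fold change was -0.99 ± 0.24 (SE), with a 95% interval from -1.52 to -0.46 and an adjusted p of 0.0955. This p lay close under the threshold: the gene was also called by the likelihood ratio test (adjusted p = 0.0095) and by DESeq2 (0.00548), which called 6.27% and 7.54% of all genes tested, whereas it was lost on leaving out Charme WT pool 1, 2 or 3 (adjusted p = 0.185, 0.183 and 0.447) or Charme KO pool 1 (0.10), with estimates from -1.11 to -0.74. Those 4 fits called 0.0137%, 1.27%, 0% and 4.33% of all genes, in that order, and the fit that left out Charme KO pool 2, where Irx3 had -1.32 (adjusted p = 0.00463), called 31.7%.

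An antisense gene, Irx3os, starts inside Irx3 and shares 124 exon bases with it on the opposite strand. Fragments were counted by strand, which keeps the counts of the pair apart. Irx3os had 45, 40 and 39 counts in Charme WT pools and 18 and 21 in Charme KO pools, so both Charme KO pools again lay below the Charme WT pools. Its log2 fold change was -0.97 ± 0.38 (SE), close to that of Irx3, but with few counts its adjusted p was 0.228.

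Windows from 250 bases before to 50 bases after the transcription start were given by RefSeq on GRCm38.p6 for 5 of the 7 genes, of which Irx3 (chr8:91801605-91801904, minus strand) and Gja5 (chr3:97032152-97032451, plus strand) are shown because they are the 2 most abundant of the 7 and because Irx3 was called lower and Gja5 was not. Both windows lie inside the annotated spans of their genes (chr8:91798525-91802067 for Irx3 and chr3:96904693-97077416 for Gja5). Neither window reaches the upstream end of its gene, so the sequence at those ends is not shown. No binding or chromatin was measured here, so the windows are context for the genes and not evidence of control. Letters in capitals mark matches to motifs searched on both strands.
Irx3: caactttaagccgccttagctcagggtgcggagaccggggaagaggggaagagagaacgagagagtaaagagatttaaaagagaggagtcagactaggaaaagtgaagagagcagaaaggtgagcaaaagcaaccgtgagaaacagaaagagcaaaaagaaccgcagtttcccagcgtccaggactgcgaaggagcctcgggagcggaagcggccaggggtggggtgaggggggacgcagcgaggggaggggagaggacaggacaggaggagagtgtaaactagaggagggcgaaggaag
Gja5: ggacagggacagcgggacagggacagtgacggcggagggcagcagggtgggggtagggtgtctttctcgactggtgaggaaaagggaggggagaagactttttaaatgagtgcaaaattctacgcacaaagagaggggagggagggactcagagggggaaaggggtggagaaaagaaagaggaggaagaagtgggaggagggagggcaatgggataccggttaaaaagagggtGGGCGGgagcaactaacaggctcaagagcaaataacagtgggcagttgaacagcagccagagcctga
The motifs were the T-box element GGTGTGA, the NKX2-5 element TGAAGTG, the Iroquois element ACANNTGT, the GC box GGGCGG and the TATA element TATAAA. Of 32841 mouse windows of the same length, 3.98%, 4.02%, 7.37%, 35.7% and 13.6% held them, in that order. The Irx3 window held none of these motifs, and the Gja5 window held 1 GC box, at position -17 from the start. The Irx3 window was 56.0% G and C with 14 CpG dinucleotides, and the Gja5 window was 55.7% with 7, beside medians of 52.7% and 7 over all windows.

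Irx3 was set beside the other Iroquois genes, which lie in 2 clusters and of which Irx4 marks ventricular muscle and Irx5 shapes repolarization across the ventricular wall. Irx4 was the only family member above Irx3, with 47.0, 49.4 and 51.3 FPKM in Charme WT pools and 21.1 and 37.5 FPKM in Charme KO pools, again without overlap. Its log2 fold change was -0.75 ± 0.24 (SE), and its adjusted p of 0.167 did not pass. Irx1 had -0.61 ± 0.30 (adjusted p = 0.298), Irx5 -0.31 ± 0.27 (0.556) and Irx2 -0.21 ± 0.31 (0.733). So 5 of the 5 Iroquois genes tested had negative estimates, as did 7165 of all 14880 genes tested. Of the 5, 1 was called lower, as were 0.524% of all genes. Irx6 had too few counts to be tested. In Charme KO pool 1 the 6 genes together came to 43.8 FPKM and in Charme KO pool 2 to 75.5 FPKM, against 88.2 to 110 FPKM in Charme WT pools. As a share of that sum, Irx3 took 26.8%, 28.2% and 31.5% in Charme WT pools and 26.5% and 22.8% in Charme KO pools. The mean share in Charme KO minus that in Charme WT was -4.19 percentage points, with an exact two-sided permutation p of 0.2. With 3 pools against 2 there are 10 assignments of pools and no such p can be below 0.1, and over the 7 families compared the adjusted p-values ran from 0.42 to 1.

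**Figure D2:**
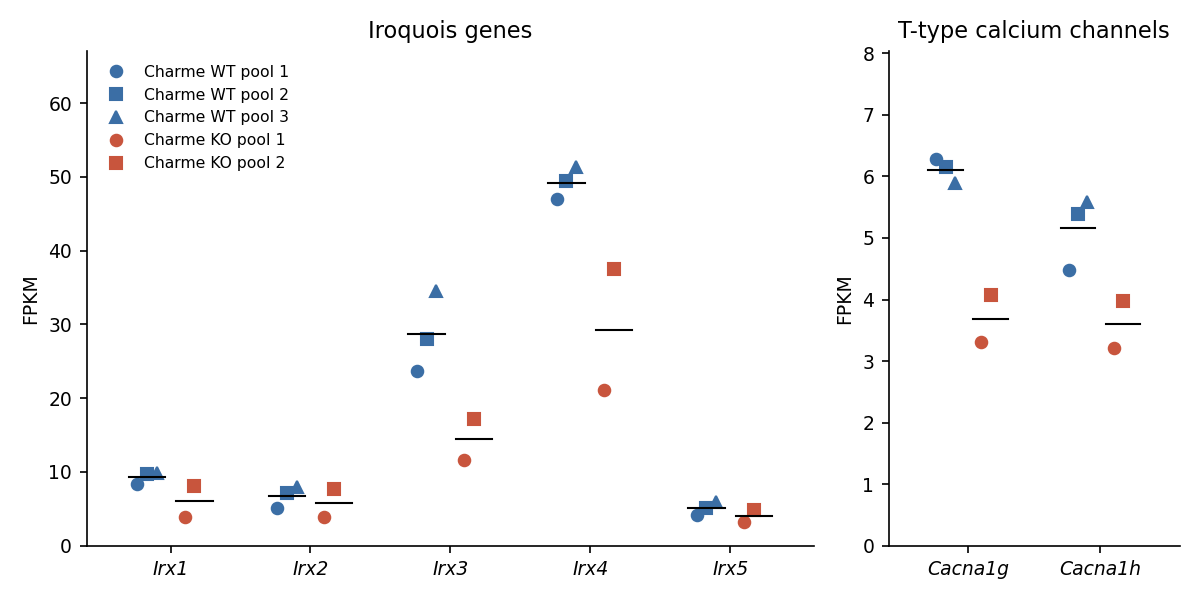
FPKM from 0 of the 5 Iroquois genes and the 2 T-type calcium channel genes that were tested. Each symbol is 1 pool and each black bar the mean of a genotype. Irx1, Irx3, Irx4, Cacna1g and Cacna1h have both Charme KO pools under all Charme WT pools, as do 18.2% of all genes tested.

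Over the 5 pools, the genes with the profile closest to Irx3 were Trp53i11, a gene induced by p53, Npc1, which carries cholesterol out of lysosomes, and Kdm6b, a demethylase of histone H3. Likeness was the root mean square difference of log2 CPM centred on each gene's mean, over 11546 genes with a mean FPKM of at least 1, and it was 0.09 for each of the 3. Kdm6b had 9.84, 13.9 and 14.6 FPKM in Charme WT pools and 4.88 and 7.43 FPKM in Charme KO pools, with the same order of pools as Irx3. With 5 pools, likeness of profile is a description only.

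Cacna1g encodes CaV3.1, a T-type calcium channel of node cells that is also made by neonatal working muscle. It lies at chr11:94408391-94474198 on the minus strand, with 10137 exon bases in 38 blocks. Charme WT pools 1 to 3 had 6.28, 6.15 and 5.89 FPKM, with the smallest spread of the 7 genes relative to its mean (6.11 ± 0.200 SD, n = 3). Charme KO pools 1 and 2 had 3.31 and 4.08 FPKM (mean 3.69 ± 0.546 SD, n = 2). The groups did not overlap, and the gap between them was wider than the spread inside either. The log2 fold change was -0.72 ± 0.18 (SE), with an interval from -1.13 to -0.32, and its adjusted p of 0.109 missed the threshold. The likelihood ratio test (adjusted p = 0.0289) and DESeq2 (0.0195) called it, at shares of 6.27% and 7.54% of all genes. So did the fit without Charme KO pool 2 (-0.89, adjusted p = 0.00768), in which 31.7% of all genes were called. Correcting each pool for length and GC content moved the estimate to -0.37 (adjusted p = 0.272).

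Of the other T-type genes, Cacna1h, which encodes CaV3.2 and whose cardiac level drops after birth, had 4.49, 5.40 and 5.59 FPKM in Charme WT pools and 3.21 and 3.98 FPKM in Charme KO pools. Its log2 fold change was -0.52 ± 0.20 (SE, adjusted p = 0.216). Both T-type genes that could be tested had their Charme KO pools below all Charme WT pools, as did 18.2% of all genes. Neither passed. Cacna1i had too few counts for a test. Cacna1g made up 58.3%, 53.2% and 51.3% of the T-type sum in Charme WT pools and 50.7% and 50.6% in Charme KO pools (exact two-sided permutation p = 0.2). The sum itself was 10.8 to 11.6 FPKM in Charme WT pools and 6.52 and 8.05 FPKM in Charme KO pools.

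Hcn4 encodes the main channel of the pacemaker current in the sinoatrial node, and at chr9:58823412-58863175 on the plus strand it has 6118 exon bases. It was measured at 1.68, 1.71 and 2.31 FPKM in Charme WT pools and at 1.30 and 1.64 FPKM in Charme KO pools. Both Charme KO pools lay below the Charme WT pools, but Charme KO pool 2 was only just below Charme WT pool 1. Its estimate was -0.37 ± 0.26 (SE) on the log2 scale, the interval of -0.95 to 0.22 included 0, and the adjusted p was 0.465. Hcn2, the HCN gene of working ventricular muscle, stood at 1.93, 2.04 and 1.84 FPKM in Charme WT pools and 0.621 and 1.36 FPKM in Charme KO pools (log2 fold change -0.92 ± 0.35 SE, adjusted p = 0.217). Hcn3 stayed under 0.2 FPKM in every pool, with an estimate of -0.31 ± 0.69 (SE). Hcn4 held 45.6%, 43.5% and 52.9% of the HCN sum in Charme WT pools and 62.5% and 52.6% in Charme KO pools, which overlap, and the exact two-sided permutation p for the share was 0.3.

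Tbx3 encodes the T-box repressor that keeps node cells from turning into working muscle. The gene is at chr5:119670669-119684724 on the plus strand. Its levels were 1.44, 1.93 and 1.87 FPKM in Charme WT pools and 1.13 and 1.73 FPKM in Charme KO pools, with Charme KO pool 2 inside the Charme WT range. Its log2 fold change of -0.28 ± 0.27 (SE) had an interval from -0.89 to 0.33 and an adjusted p of 0.604. Its antisense neighbour Tbx3os1 shares 115 exon bases with it and had between 6 and 24 counts per pool. Tbx2, a repressor with an overlapping role in the atrioventricular canal, had 5.30, 7.17 and 6.36 FPKM in Charme WT pools and 2.56 and 5.51 FPKM in Charme KO pools (-0.62 ± 0.31 SE, adjusted p = 0.312). Tbx5, an activator of Gja5 and of atrial and ventricular conduction genes, had -0.47 ± 0.28 (adjusted p = 0.391), and Tbx4 was too low to test. All 3 tested genes of this family were lower in Charme KO pool 1 than in pool 2, as were 7521 of all 14880 genes tested, and none was called. The share of Tbx3 in the family sum was 10.3% ± 1.13 (SD, n = 3) in Charme WT pools and 12.3% ± 1.64 (SD, n = 2) in Charme KO pools, with an exact permutation p of 0.3.

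Gja5 encodes connexin 40, the high-conductance gap junction protein of the atria, the His-Purkinje system and the endothelium of arteries. It spans chr3:96904693-97077416 on the plus strand. It stood at 8.61, 8.53 and 11.95 FPKM in Charme WT pools and 7.90 and 10.1 FPKM in Charme KO pools. The groups overlapped, and the log2 fold change of -0.11 ± 0.22 (SE, adjusted p = 0.810) had an interval from -0.59 to 0.37, so a change of the size seen for Irx3 lies outside it. Its sign was not stable, at 0.07 on leaving out Charme WT pool 3, 0.06 on leaving out Charme KO pool 1 and 0.05 with the correction for length and GC content. The upstream end of the gene shares 165 exon bases with Gpr89 on the opposite strand, and Gpr89 had an estimate of 0.48 ± 0.21 (SE, adjusted p = 0.256).

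Arterial endothelium also makes Gja5, and of 9 arterial markers 8 had negative estimates and 2 were called lower. Of all genes tested, 0.524% were called lower. The 2 arterial markers called were the chemokine gene Cxcl12 (-0.74 ± 0.17 SE, adjusted p = 0.0883) and the elastic fibre gene Fbln5 (-1.09 ± 0.27 SE, adjusted p = 0.0992). Gja4, the most abundant arterial marker by the mean of the 5 pools, had -0.25 ± 0.37 (adjusted p = 0.737). The 9 arterial markers summed to 61.4 to 79.1 FPKM in Charme WT pools and to 37.2 and 60.2 FPKM in Charme KO pools. Atrial muscle also makes Gja5, and of 9 atrial markers the light chain gene Myl4 (1.21 ± 0.18 SE, adjusted p = 0.0343) and the ligand gene Bmp10 (1.10 ± 0.25 SE, adjusted p = 0.0821) were called higher. Of all 14880 genes tested, 227 were called higher. Nppa, the most abundant atrial marker and a natriuretic peptide gene, had 0.82 ± 0.29 (SE, adjusted p = 0.199). Estimates were positive for 6 of the 9 atrial markers and negative for 3, which were Nr2f1 (-0.29), Nr2f2 (-0.16) and Dkk3 (-0.06). The atrial sum was 1425 to 1874 FPKM in Charme WT pools and 2437 and 3592 FPKM in Charme KO pools. What arterial and atrial RNA each contributed to Gja5 was not tested. Among the cardiac connexins, Gja1, the connexin 43 gene of working muscle, had an estimate of 0.04 ± 0.23 (adjusted p = 0.942). Gjc1, the connexin 45 gene of the nodes, had -0.29 ± 0.18 (0.401) and Gjd3, a low-conductance connexin gene of the nodes, -0.67 ± 0.36 (0.343). Gja5 was 11.9% ± 1.76 (SD, n = 3) of the connexin sum in Charme WT pools and 11.8% ± 4.58 (SD, n = 2) in Charme KO pools, where the 2 pools were at 8.58% and 15.1%.

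Etv1, an ETS factor that relays neuregulin signals to fast-conducting atrial and Purkinje muscle, was the only one of the 7 with a positive estimate. The gene is at chr12:38779380-38870484 on the plus strand and has 13296 exon bases. It was at 0.961, 0.868 and 1.29 FPKM in Charme WT pools and at 1.40 and 1.20 FPKM in Charme KO pools, and only Charme KO pool 1 was above every Charme WT pool. On the log2 scale the difference was 0.32 ± 0.24 (SE, adjusted p = 0.490), with an interval from -0.22 to 0.86. The related factors Etv4 (0.17 ± 0.30, adjusted p = 0.785) and Etv5 (-0.14 ± 0.24, adjusted p = 0.772) were also not called. Etv1 took 16.0% ± 4.03 (SD, n = 3) of the sum of the 3 in Charme WT pools and 19.5% ± 1.14 (SD, n = 2) in Charme KO pools (exact permutation p = 0.5).

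Cntn2 encodes contactin 2, an adhesion protein that marks Purkinje cells but is also made by neurons and glia. At chr1:132509427-132543256 on the minus strand, it was the least abundant of the 7 genes, with 59, 86 and 80 counts in Charme WT pools and 19 and 111 in Charme KO pools. These are 0.308, 0.523 and 0.435 FPKM against 0.145 and 0.535 FPKM, so the 2 Charme KO pools were the lowest and the highest of the 5. The log2 fold change of -0.24 ± 0.47 (SE, adjusted p = 0.805) has an interval from -1.30 to 0.81 and so includes both 0 and a change of the size seen for Irx3. Without Charme KO pool 1 the estimate was 0.35 and without Charme KO pool 2 it was -1.54. Markers of Schwann cells and neurons did not move as one in Charme KO pool 2. Sox10, a factor of Schwann cells that salivary gland also makes, was at 4.20 FPKM there against 0.167 to 0.298 FPKM in the other pools. The most abundant marker, Dbh, was at 0.799 FPKM there and at 1.07 to 1.497 FPKM in the others, with an estimate of -0.42 ± 0.34 (SE, adjusted p = 0.513). The 11 Schwann and neural markers summed to 11.8 FPKM in Charme KO pool 2, 4.34 FPKM in Charme KO pool 1 and 3.47 to 4.92 FPKM in Charme WT pools. Of these, 8 were tested and 1 was called higher, as were 227 of all 14880 genes tested. This gene was S100b (2.17 ± 0.52 SE, adjusted p = 0.0955). S100b was at 0.262, 0.534 and 0.511 FPKM in Charme WT pools and at 1.003 and 2.75 FPKM in Charme KO pools 1 and 2. The part of these markers in the level of Cntn2 was not tested. No other contactin gene had enough counts to be tested.

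**Figure D3:**
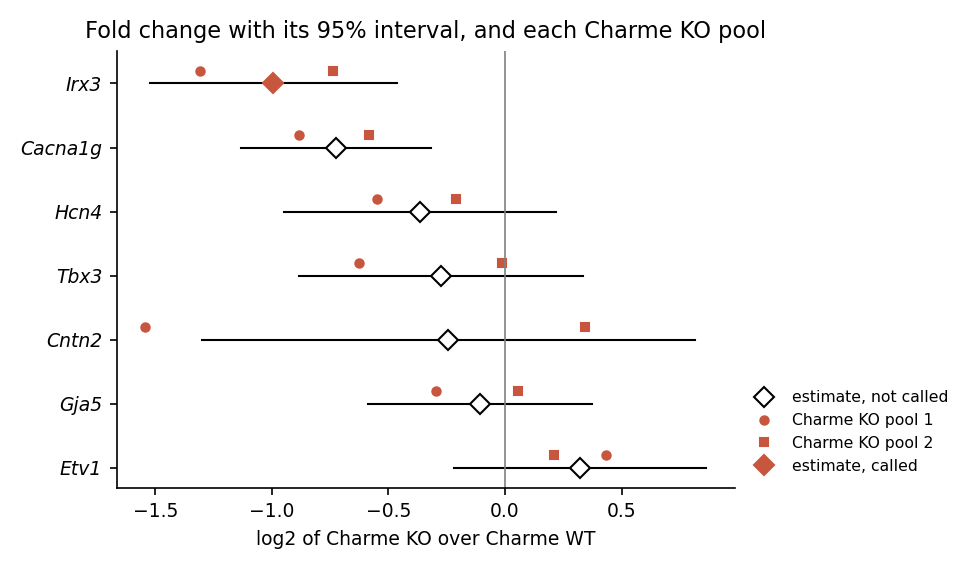
Log2 fold change of Charme KO over Charme WT for the 7 genes. Diamonds are the estimates of the quasi-likelihood test with their 95% intervals, filled for Irx3, the 1 gene called. Small symbols are each Charme KO pool over the mean of the Charme WT pools. Charme KO pool 1 lies further left than pool 2 for 6 of the 7 genes, and was below pool 2 for 7521 of all 14880 genes tested.

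The 2 Charme KO pools did not move alike. Against the Charme WT mean, the 7 genes had a median log2 ratio of -0.63 for Charme KO pool 1 and of -0.01 for pool 2. Over all genes tested it was -0.01 for each. Charme KO pool 1 was below pool 2 for 6 of the 7, all but Etv1, and for 7521 of all 14880 genes tested. Irx3 was at -1.31 in Charme KO pool 1 and -0.74 in pool 2, and Cacna1g was at -0.89 and -0.58, so these 2 genes were low in both. Tbx3 was at -0.63 and -0.01, Gja5 at -0.30 and 0.06, and Cntn2 at -1.54 and 0.34. The negative estimates of Tbx3, Gja5 and Cntn2 thus rested on Charme KO pool 1. Of the 2 Charme KO pools, pool 1 was the one with the high mitochondrial share, and the part of that difference in these values was not tested.

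In order of mean FPKM over the 5 pools the genes ran Irx3 (23.0), Gja5 (9.42), Cacna1g (5.14), Hcn4 (1.73), Tbx3 (1.62), Etv1 (1.14) and Cntn2 (0.389). In Charme WT hearts Irx3, Gja5 and Cacna1g were each separated from their neighbours in every pool. Hcn4 and Tbx3 changed places between pools, with Hcn4 higher in Charme WT pools 1 and 3 and Tbx3 higher in Charme WT pool 2, and their order cannot be given. Etv1 lay under both of them and above Cntn2 in all 3 Charme WT pools. In Charme KO pool 1 Etv1 was above Hcn4 and Tbx3, which it was not in any other pool.

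A further 38 genes of the conduction system were listed by region, and of the 35 that could be tested none was called by the quasi-likelihood test. At an unadjusted p under 0.05 there were 9 of 35, against 18.6% of all genes, and 6 of the 9 had negative estimates. The likelihood ratio test called 1 of the 35 and DESeq2 called 2, where they called 6.27% and 7.54% of all genes. Estimates were negative for 23 and positive for 12, with a median log2 fold change of -0.25. Both Charme KO pools lay below the Charme WT pools for 11 genes and above them for 6, where 18.2% and 17.8% of all genes did so. Isl1 and Scn4b had too few counts to be tested and Pcp4 had 0 counts in all pools. Without Charme KO pool 2, 10 of these genes were called, in a fit where Charme KO pool 1 stood alone, was assumed to vary like the Charme WT pools, and 4607 genes, 31.7% of those tested, were called in all.

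Of 14 genes of the sinoatrial node and pacemaking, 13 were tested and 6 had an unadjusted p under 0.05, as did 18.6% of all genes tested. Of these 6 genes, 5 had negative estimates and 1 a positive one. The most abundant were Kcnj5, Gjc1 and Tbx18. Kcnj5, which encodes a subunit of the acetylcholine-activated potassium channel that slows the node, was at 27.1, 20.8 and 30.0 FPKM in Charme WT pools and 18.2 and 15.9 FPKM in Charme KO pools (-0.61 ± 0.20 SE, adjusted p = 0.180). Tbx18, which specifies the head of the node, had an estimate of 0.06 ± 0.19 (adjusted p = 0.892). Beyond these, Cacna1d, Rgs6, Hcn2, Cacna1h and Shox2 are named because of their p-values, after they had been seen. Cacna1d, the L-type channel gene of node cells, had -0.78 ± 0.28 (adjusted p = 0.199), and Rgs6, which shortens the vagal signal, had -0.65 ± 0.26 (adjusted p = 0.233). Shox2, a homeobox gene that holds Nkx2-5 down in the node, had the largest positive estimate, with 0.279, 0.222 and 0.428 FPKM in Charme WT pools and 0.471 and 0.907 FPKM in Charme KO pools (1.18 ± 0.44 SE, adjusted p = 0.211). The channel genes picked in this way, Cacna1d, Hcn2 and Cacna1h, had negative estimates, Shox2 had a positive one, and none passed the adjustment. Not all channel genes of the list were lower, as Kcnj3, a potassium channel gene, had 0.18 ± 0.25 (SE, adjusted p = 0.716).

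All 7 genes of the atrioventricular node and bundle were tested, and 1 had an unadjusted p under 0.05. The most abundant were Gata6, Id2 and Tbx2. Gata6, a zinc finger factor of the atrioventricular canal, had 40.4, 40.0 and 38.3 FPKM in Charme WT pools and 31.7 and 31.1 FPKM in Charme KO pools (-0.33 ± 0.16 SE, adjusted p = 0.308). Id2, an inhibitor of helix-loop-helix factors that is needed for the bundle branches, had 15.4, 12.1 and 14.5 FPKM in Charme WT pools and 18.9 and 18.6 FPKM in Charme KO pools (0.42 ± 0.19 SE, adjusted p = 0.263). It was the one gene of the 7 with a positive estimate.

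Of 17 genes of the His-Purkinje system and of fast conduction, 15 were tested, with 8 negative and 7 positive estimates. An unadjusted p under 0.05 was seen for 2 of the 15. The most abundant were Hopx (0.46 ± 0.22 SE, adjusted p = 0.304), Nkx2-5 (-0.43 ± 0.20, adjusted p = 0.270) and Igfbp5 (-0.36 ± 0.31, adjusted p = 0.548). Nkx2-5, the homeobox factor that acts with Tbx5 on conduction genes, had 102, 125 and 105 FPKM in Charme WT pools and 70.1 and 94.1 FPKM in Charme KO pools, without overlap.

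**Figure D4:**
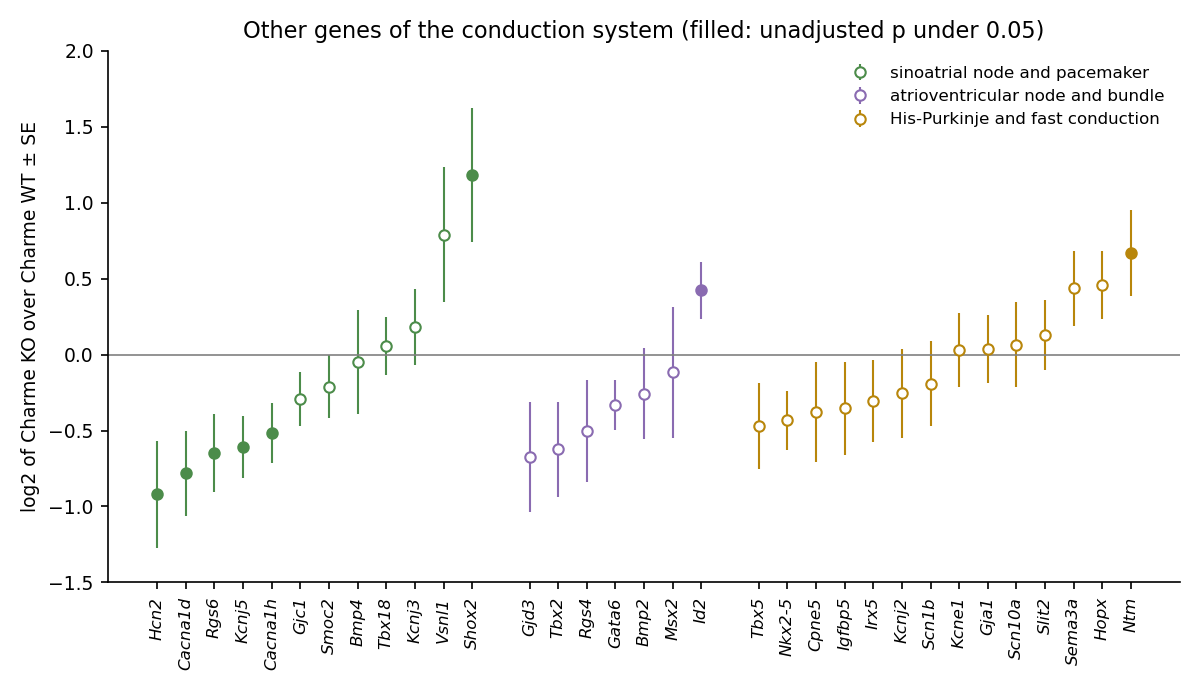
Log2 fold change of Charme KO over Charme WT with its standard error for 33 tested genes of the conduction list, grouped by region and ordered by value. Filled symbols have an unadjusted p under 0.05, which 8 of the genes shown do, and no gene passed the adjusted threshold.

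Irx3 and Gja5 are also made by the trabecular layer from which Purkinje cells arise. All 7 listed trabecular markers had positive estimates and 2 were called higher: Nppb, a natriuretic peptide gene (2.20 ± 0.45 SE, adjusted p = 0.0633), and Bmp10. The list leaves out Irx3 (-0.99) and Gja5 (-0.11), whose estimates were negative, and it shares Nppa and Bmp10 with the atrial list. Of all 14880 genes tested, 227 were called higher. Nppa was the most abundant of this list too, at 677 to 1273 FPKM in Charme WT pools and 1404 and 2137 FPKM in Charme KO pools. Their sum was 1022 to 1655 FPKM in Charme WT pools and 2695 and 2656 FPKM in Charme KO pools. Of 6 ventricular markers, 5 had negative estimates and none was called, the most abundant being Myl2 (0.32 ± 0.35, adjusted p = 0.638). Of 5 pan-cardiomyocyte markers none was called, and the most abundant, Actc1, had 0.22 ± 0.37 (adjusted p = 0.778). Of 5 pan-endothelial genes 4 had negative estimates and none was called, with Cdh5 the most abundant (-0.40 ± 0.23, adjusted p = 0.377). Skeletal muscle markers gave 2 called higher of 6 tested, Mylpf and Myh8, while the most abundant, Ckm, had 0.16 ± 0.26 (adjusted p = 0.758). Markers of adipose tissue gave 5 of 5 and of salivary gland 5 of 6 called higher, each of these highest in Charme KO pool 2, where Bpifa2 led the salivary and Ucp1 the adipose genes. Bpifa2, Smgc, Prol1 and Pip had no count in any Charme WT pool. No thymus gene and 1 of 4 lung genes could be tested, and that gene, Sftpc, was not called. Whether the share of ventricular or trabecular RNA had a part in the level of Irx3 was not tested.

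**Figure D5:**
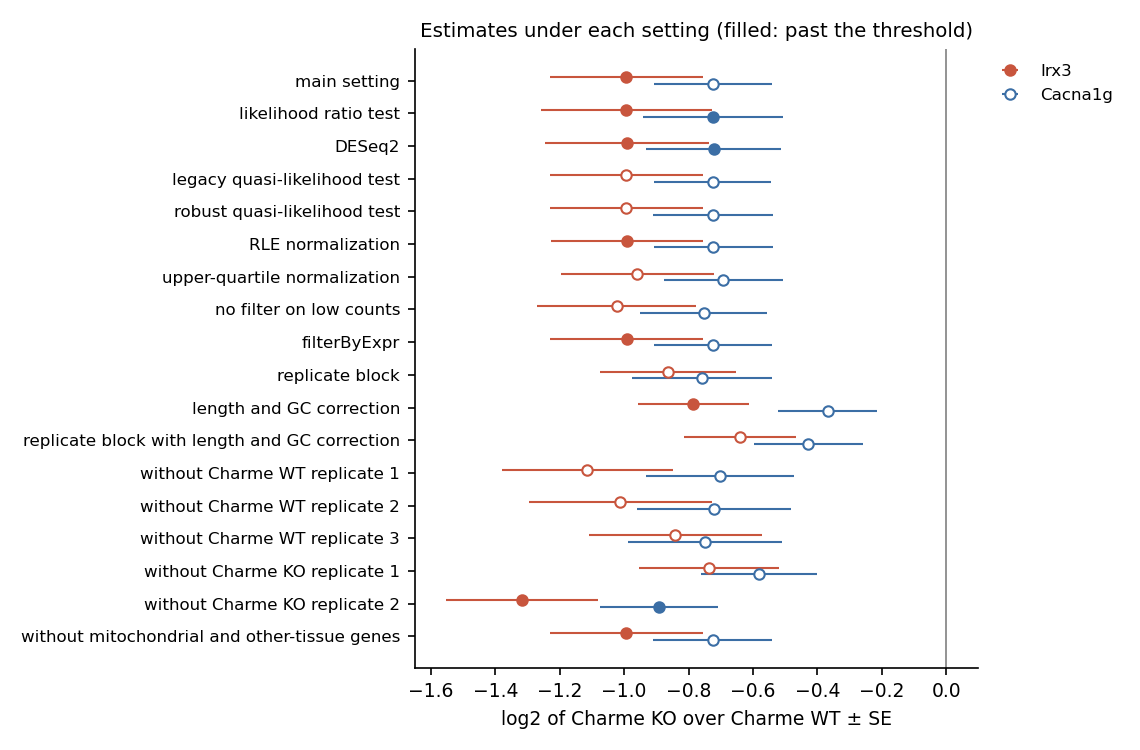
Log2 fold change and standard error of Irx3 and Cacna1g under each way of processing, filled where the adjusted p was under 0.1. Every estimate is negative, from -1.32 to -0.64 for Irx3 and from -0.89 to -0.37 for Cacna1g, and the adjusted p lies on both sides of the threshold for each gene.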

How the data were processed

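PolyA+ RNA was sequenced from 3 Charme WT and 2 Charme KO pools of postnatal day 2 hearts, with a stranded kit. The deposited values are raw counts: the authors trimmed the reads with Cutadapt and Trimmomatic, used STAR to align them to GRCm38, and took the fragments of each gene of Ensembl release 87 by strand, without normalization. A deposited FPKM table was not used, and FPKM was computed from the counts with exon lengths of GENCODE M21. The filter asked for 10 counts or more in no fewer than 2 pools, and genes that passed were normalized by TMM and tested with edgeR 4.0.16 (R 4.3.3) by the quasi-likelihood test, adjusted by Benjamini-Hochberg over all genes tested. The authors' methods name the likelihood ratio test, run here as an alternative with DESeq2 1.42.0, other normalizations, filters and thresholds, a replicate block, a length and GC correction, and each pool left out. Standard errors are the size of the log2 fold change over the square root of F. Family shares were compared by exact permutation tests over pools. The fit was tested on simulated data.

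The 7 genes, the lists and the tests were chosen with earlier results of these data known. Genes named were the 7, Charme, tested family genes, the 3 most abundant of each conduction region, the 3 closest to Irx3 and the most abundant markers, others being named after their values were seen. Some genes of the lists enter the counts and sums but are not reported here by name. All 137 symbols of the lists matched 1 deposited gene each. Reads carry no molecular identifiers, so counting error is a lower limit of the error.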

Additional observations from a re-analysis of the deposited data

How the results depend on the processing

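Of the 7 genes, 1 was called in the main fit, by the RLE normalization, with filterByExpr, with no FPKM filter, with the length and GC correction, and in the fit without mitochondrial and other-tissue genes, an alternative chosen after seeing the data. There were 2 with the likelihood ratio test and with DESeq2, and 0 with the robust and the legacy quasi-likelihood fit, without the low-count filter, with upper-quartile normalization, an adjusted p under 0.05, the replicate block, and the replicate block with the length and GC correction. With 1 pool left out the count ran from 0 to 2, in fits that called from 0% (without Charme WT pool 3) to 31.7% (without Charme KO pool 2) of all genes. The conduction list had 1 called with the likelihood ratio test, 2 with DESeq2, 1 with the replicate block, and from 0 to 10 with 1 pool left out. Charme was not called in the robust form (-2.49, adjusted p = 0.120) or with the block and that correction together (-2.58, adjusted p = 0.156). Leaving out 1 pool at a time, its log2 fold change ran from -2.82 to -1.68. Gja5 turned positive with the replicate block (0.0591), the length and GC correction (0.0457) and both (0.206), as did Hcn4 with both (0.0685). Left-out pools put Gja5 between -0.30 and 0.0701 and Cntn2 between -1.54 and 0.35, and at -1.54 the adjusted p of Cntn2 was 0.0481 at a level under 1 FPKM. The causes were not tested. Replicate numbers are shared by only 2 pairs of pools, and no label says that these pools were paired. Their differences correlated at 0.16 over 14880 genes, which cannot decide whether they were. The replicate block is therefore not read as a paired design. Under it Irx3 had -0.86 (adjusted p = 0.105). Etv1, Tbx3, Irx3 and Cacna1g kept their sign under all 17 alternatives. The smallest change that 3 pools against 2 could have called was not computed.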
